A study of Mus musculus with 8 samples.

Results

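The genes described here are 10 transcription factors of the AP-1 and immediate early class: Fos, Fosb, Fosl1, Fosl2, Jun, Junb, Jund, Egr1, Egr2 and Atf3. They were taken by name from the 23235 gene symbols of the deposited table, and each is listed there as a single RefSeq transcript. In the deposited mm9 coordinates they include Fos chr12:86814851-86818219, Fosb chr7:19888045-19895394, Fosl1 chr19:5447698-5457563, Fosl2 chr5:32438845-32460212, Jun chr4:94715727-94718913, Junb chr8:87500808-87502647, Jund chr8:73221638-73224515, Egr2 chr10:67000617-67004936 and Atf3 chr1:192994176-193007212. All 10 passed the filter on low values, 1 FPKM or more in 2 or more libraries with a transcript of 300 bases or longer, as did 12025 genes in all. FPKM are fragments scaled by transcript length and by library size, and on that scale levels of different genes were set side by side. Whether the listed values keep the same scale from low to high levels was not tested. Orders of level, family sums and shares given below are therefore those of the listed values.

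Fos and Jun proteins belong to the basic leucine zipper family. A Fos protein pairs with a Jun protein, and Jun proteins also pair among themselves, to form AP-1, which binds a short palindromic DNA element. Many of these genes are immediate early genes: in fibroblasts, serum and growth factors acting through MAP kinases, serum response factor and CREB switch them on within minutes with no need for new protein synthesis. Egr1 and Egr2 are zinc finger factors of the same early wave, and Atf3 is a stress-induced leucine zipper factor that can pair with Jun proteins.

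The libraries come from mouse embryonic fibroblasts (MEF, connective tissue cells in culture) of strain C57BL/6, grown in medium with fetal bovine serum, and fall into 4 groups of 2. Control cells carry Taf4 loxp/-, that is, 1 floxed and 1 null allele of Taf4, which encodes part of TFIID, the complex that recognises core promoters. A second label field names the control cells wild type. Knockout cells are Taf4 -/-. The rescue groups are knockout cells with stable human TAF4, either full length (hTAF4 wt, clones 1 and 2) or without its TAFH domain (hTAF4 Δ, TAFH-deleted, clones 1 and 2), a conserved segment. All groups thus carry a null allele of mouse Taf4, with a second, floxed copy in the control, and every rescue value is that of a clone. The labels do not say that libraries of a group came from separate cultures. The p-values given here measure no more than the spread among these samples, which may be technical. The labels name no stimulus or time of harvest after feeding. Bulk RNA cannot tell fewer expressing cells from less RNA per cell.

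Low FPKM values were whole multiples of the worth of 1 fragment, which gave implied totals of between about 14300000 and 17300000 fragments per library. The control libraries differed by less than the sampling noise, with a chi-square per gene of 0.735 ± 0.0378 (SE) where independent reads give 1, as did the knockout libraries at 0.632 ± 0.0377 (SE). These values cover 676 and 599 single-transcript genes that averaged 2 to 7 implied fragments, and no member is among them. The hTAF4 wt pair gave 1.58 ± 0.0724 and the hTAF4 Δ pair 2.54 ± 0.115 (SE). The control mean and the knockout mean were each taken as 1 sample, for 6 samples in the fit. Of the 12025 genes tested, 39 were at least 2-fold apart between the hTAF4 wt clones and 923 between the hTAF4 Δ clones, so clone 2 and clone 1 of the deleted form are given separately throughout. Of 10 fibroblast markers, 9 were at 1 FPKM or more in every library and Thy1 was at most 0.0773 FPKM. The 7 epithelial markers summed to at most 0.324 FPKM, the 5 endothelial markers to at most 0.473 and the 5 muscle markers to at most 0.483. The 7 immune markers summed to between 7.71 and 23.2 FPKM, with Ptprc at most 0.0229 FPKM. The 5 neural markers summed to between 18.2 and 40.6 FPKM, with Sox10 at 0. Taf4a, the mouse Taf4 gene, was listed at 11.1 to 11.5 FPKM in control and 12.4 to 12.5 in knockout, a level that does not check the labels because the deleted exons are not named.

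The members spanned a wide range of levels. Junb and Fosl2 had the highest means in every group, 64.2 and 61.7 FPKM in control and 93.4 and 54.5 in knockout. In hTAF4 Δ clone 1, though, Egr1 lay above Fosl2, and these genes overlapped in that group. Jun, Jund and Egr1 followed at 35.5, 30.5 and 29.6 FPKM in control. Fosl1 and Atf3, at 16.7 and 16.1 FPKM, overlapped each other in the control libraries, and Fos lay below them. Fosb and Egr2 were lowest in all 4 groups, at 2.44 and 2.02 FPKM in control. The order differed between groups: in knockout Atf3 was at 33.1 FPKM and overlapped Jun, and Fos stood above Fosl1.

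**Figure D1:**
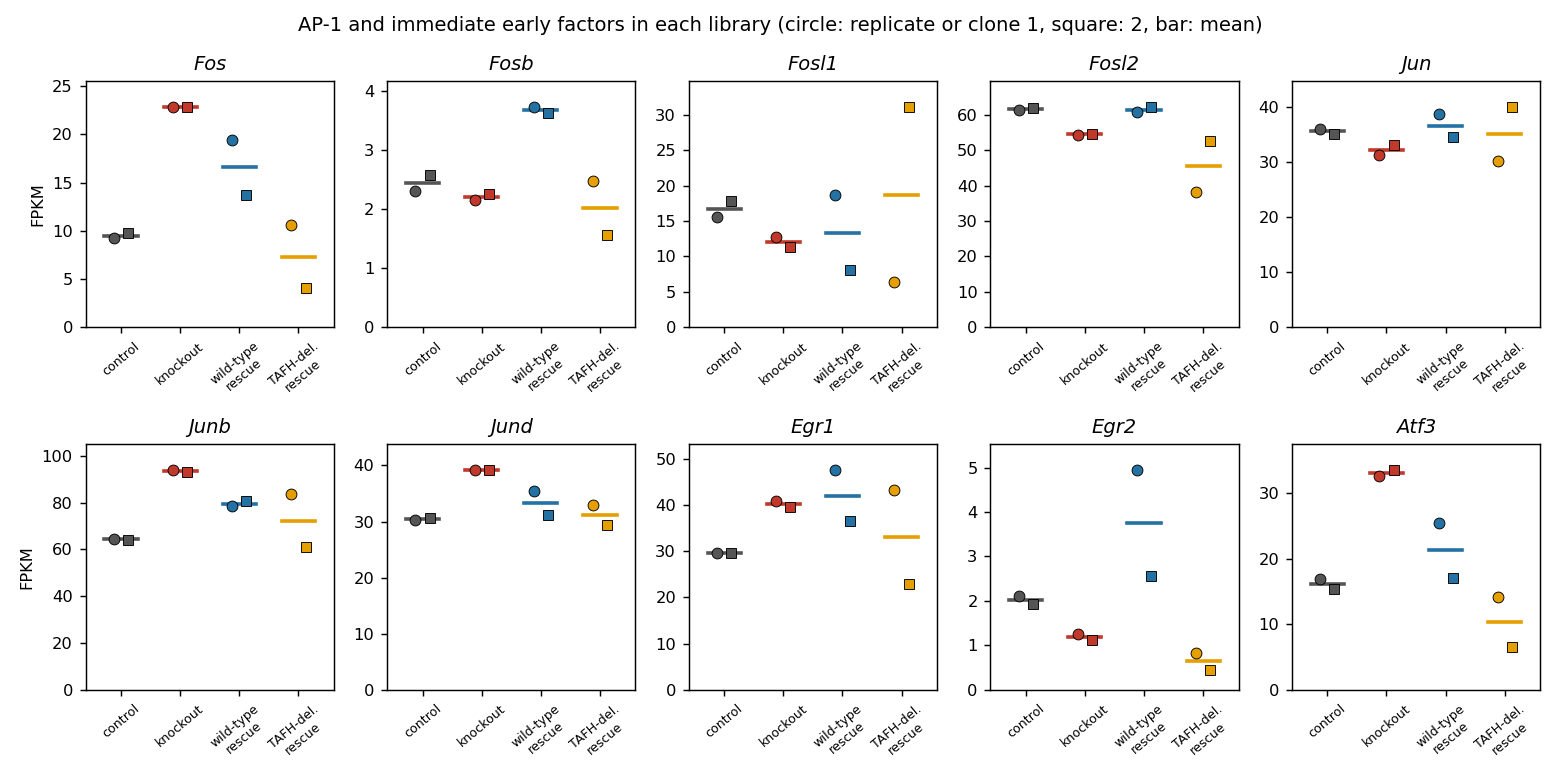
FPKM of each member in each library, on axes that start at 0. Circles are replicate or clone 1, squares replicate or clone 2, and bars are the mean of the 2 libraries. The knockout libraries of Fos and Atf3 lie above all other libraries, and the hTAF4 Δ clones of Fosl1 lie far apart.

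In knockout against control, which asks what loss of Taf4 changes, 5 members were higher in knockout (Fos, Junb, Jund, Egr1 and Atf3) and 5 were lower (Fosb, Fosl1, Fosl2, Jun and Egr2), where 45.1% of genes were higher and 54.9% lower. None of the 10 overlapped between these groups, as in 40.3% of genes upward and 49.6% downward. Fos was the farthest apart and the only member at least 2-fold higher on the log2(FPKM + 1) scale, a distance reached upward by 0.798% of the genes tested. Atf3 fell just short on that scale, at 0.99, and was 2.05 times control by FPKM. With a pseudocount of 0.1 its log2 difference was 1.03. No member was at least 2-fold lower, against 5.76% of genes. The limma test called 0 of 10 members at an adjusted p of 0.05, and 0% of all genes, with 0 members at an unadjusted p under 0.05, beside 9.21% of genes. Both sides have a single sample here, and the spread comes from the rescue clones alone. Without hTAF4 Δ clone 1 or without clone 2, which are not in this comparison, Fos and Junb passed, with 22.6% and 22.1% of all genes. The neural marker sum stood at 40.6 and 39.3 FPKM in control and 18.2 and 19.4 in knockout, and its part in these values was not tested. The authors' deposited table, from Cuffdiff, calls 9 of the 10 members here, all but Fosb, against 53.8% of the transcripts it tests.

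Fos, the founding partner of Jun in AP-1, was at 9.26 and 9.73 FPKM in the control libraries and at 22.8 FPKM in both knockout libraries. It was at 19.5 and 13.7 FPKM in the hTAF4 wt clones and at 10.6 and 4.04 in the hTAF4 Δ clones. The knockout libraries were therefore above all 6 others, and hTAF4 Δ clone 2 was below all others. The mean in knockout was 2.40 times that in control, a log2 difference of 1.18 ± 0.66 (SE, limma adjusted p = 0.643). Implied fragments per library ran from 124 to 638, and the counting error of each knockout value was 3.96%.

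Fosb, a Fos-like partner of Jun proteins, was at 2.30 and 2.57 FPKM in control, 2.16 and 2.25 in knockout, 3.72 and 3.63 in the hTAF4 wt clones and 2.47 and 1.55 in the hTAF4 Δ clones. Its hTAF4 wt clones were the highest of the 8 libraries and close to each other. Their mean of 3.67 ± 0.0682 FPKM (SD, n = 2) stood 1.67 times above knockout, a log2 difference of 0.55 ± 0.28 (SE, limma adjusted p = 0.478). Its sign in knockout against control, -0.10 as deposited, turned to 0.25 under quantile normalization.

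Fosl1, which encodes Fra-1, a Fos protein that lacks a strong activation domain, was at 15.6 and 17.8 FPKM in control and 12.7 and 11.3 in knockout. Its clones were far apart within both rescue groups, at 18.7 and 7.99 FPKM with wild-type TAF4 and at 6.38 and 31.0 with the deleted form. hTAF4 Δ clone 2 was thus the highest and clone 1 the lowest of the 8 libraries. Fosl1 differed 4.86-fold between clones of the same construct, more than the 1.39-fold between control and knockout. Its locus overlaps Ccdc85b, at 9.51 to 12.2 FPKM, and the labels do not say whether reads were counted by strand, so reads of the overlap cannot be assigned with certainty.

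Fosl2, which encodes Fra-2, was at 61.4 and 62.1 FPKM in control, 54.3 and 54.7 in knockout, 61.0 and 62.2 in the hTAF4 wt clones and 38.3 and 52.8 in the hTAF4 Δ clones. Control and wild-type rescue overlapped, knockout lay below both, and the hTAF4 Δ clones lay lower still. Implied fragments came to 27.3% to 53.7% of the number of positions open to a read start (both strands of every base). The deposited values do not give the start positions themselves. Fosl2 made up between 59.0% and 71.1% of the summed FPKM of the Fos family in each library.

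The summed Fos family was at 88.6 and 92.2 FPKM in control and at 92.0 and 91.1 in knockout, so the sums were close while the share of Fos stood at 10.5% in each control library and at 24.8% or more in the knockout libraries. In hTAF4 Δ clone 2 the share of Fosl1 was 34.7%, the largest of the 8 libraries, and that of Fos was 4.52%, the smallest. hTAF4 Δ clone 1 had the smallest sum, 57.7 FPKM. Whether the read density of Fosl2 moves these sums and shares was not tested.

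**Figure D2:**
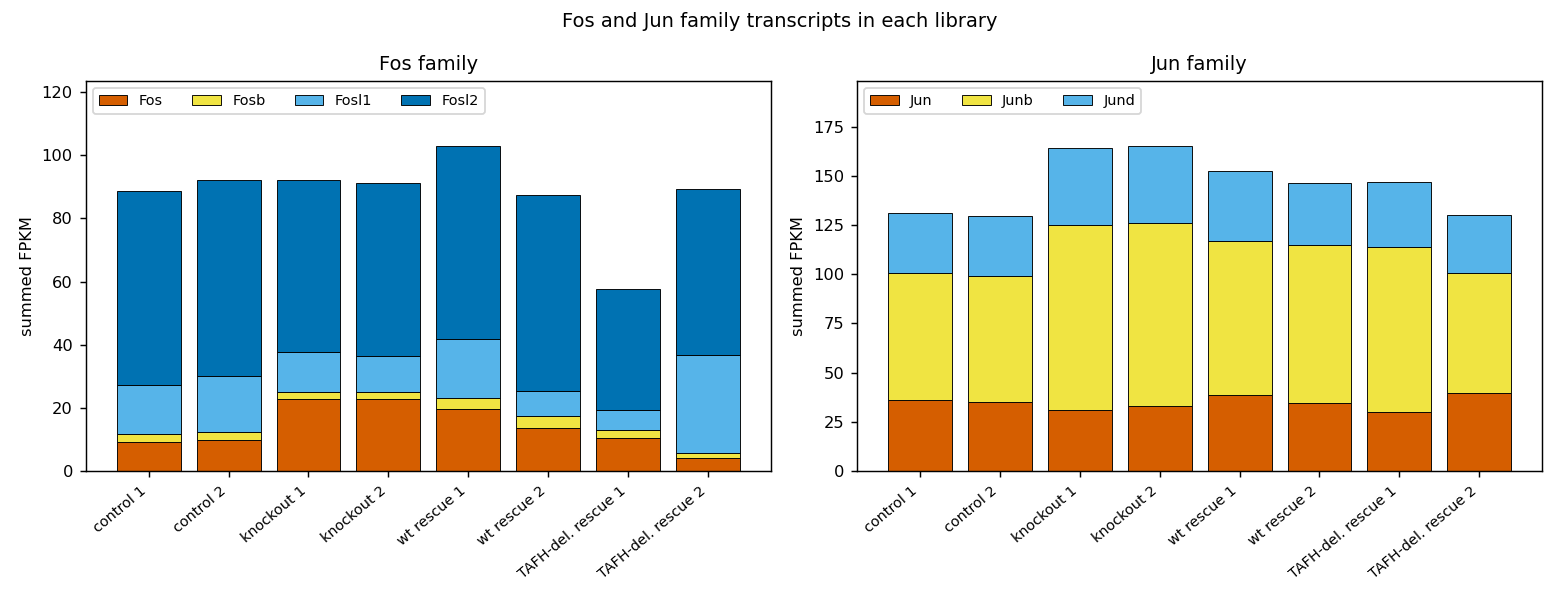
Summed FPKM of the Fos family (left) and the Jun family (right) in each library, stacked by gene, with axes from 0. The Fos family sums lie between 57.7 and 103 FPKM with Fosl2 as the largest part in each library, and the Jun family sums are highest in the knockout libraries, at 164 and 165 FPKM.

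Among the Jun genes, Jun, which encodes the activator c-Jun, ranged from 30.2 to 39.9 FPKM over the 8 libraries. It was at 36.0 and 35.0 FPKM in control, 31.2 and 33.1 in knockout, 38.6 and 34.5 in the hTAF4 wt clones and 30.2 and 39.9 in the hTAF4 Δ clones. The hTAF4 Δ clones were its lowest and highest libraries. The limma difference between knockout and control was -0.14 ± 0.23 (SE, adjusted p = 0.857).

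Junb, a weaker activator that can restrain c-Jun, was at 64.5 and 63.9 FPKM in control, 93.9 and 92.9 in knockout, 78.5 and 80.5 in the hTAF4 wt clones and 83.6 and 60.8 in the hTAF4 Δ clones. Knockout was highest, the hTAF4 wt clones lay between knockout and control, and hTAF4 Δ clone 2 was lowest. Knockout was 1.45 times control, a log2 difference of 0.53 ± 0.24 (SE, limma adjusted p = 0.598). Implied fragments of Junb came to between 49.4% and 69.5% of the number of positions open to a read start, most in a knockout library. Whether that density moves the listed level was not tested.

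Jund, a Jun gene that resting cells express too, was at 30.3 and 30.7 FPKM in control, 39.2 and 39.1 in knockout, 35.4 and 31.2 in the hTAF4 wt clones and 32.9 and 29.4 in the hTAF4 Δ clones. The knockout libraries were above the 6 others. Knockout was 1.28 times control, a log2 difference of 0.35 ± 0.16 (SE, limma adjusted p = 0.610), and Jund passed when each library was counted as a sample, as did 23.8% of all genes. Junb passed in that fit too, which had no block for the replicate number. With such a block Jund passed and Junb did not, in a fit that called 2019 genes. The share of Junb in the summed Jun family was 49.3% in each control library and 57.1% and 56.2% in the knockout libraries, and that of Jun was 27.5% and 27.0% against 19.0% and 20.1%.

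Egr1, an activator that serum response factor controls, was at 29.7 and 29.6 FPKM in control, 40.9 and 39.7 in knockout, 47.6 and 36.6 in the hTAF4 wt clones and 43.4 and 23.0 in the hTAF4 Δ clones. The rescue clones of both forms spread across the knockout level. hTAF4 Δ clone 1 lay above knockout and clone 2 was the lowest of the 8 libraries. The difference between knockout and control was 0.43 ± 0.48 on the log2 scale (SE, limma adjusted p = 0.788).

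Egr2, which encodes Krox20, a factor best known from the hindbrain and from Schwann cells, was at 2.12 and 1.93 FPKM in control and 1.25 and 1.13 in knockout. The hTAF4 wt clones had 4.94 and 2.57 FPKM and the Δ clones 0.838 and 0.446. The groups did not overlap: wild-type rescue was highest, followed by control, knockout and TAFH-deleted rescue. These values rest on few reads, with between 20 and 233 implied fragments per library. Knockout was at 0.586 times control, a log2 difference of -0.47 ± 0.45 (SE, limma adjusted p = 0.765).

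Atf3 was at 16.8 and 15.4 FPKM in control, 32.7 and 33.5 in knockout, 25.5 and 17.1 in the hTAF4 wt clones and 14.2 and 6.47 in the hTAF4 Δ clones. Its group means stood in the order of those of Fos, knockout first, then the hTAF4 wt clones, control and the hTAF4 Δ clones, and Δ clone 2 was lowest. Knockout was 2.05 times control, a log2 difference of 0.99 ± 0.59 (SE, limma adjusted p = 0.652). Over the 6 samples the log2 levels of Fos and Atf3 had a Pearson r of 0.984, given as a description only, since 4 of the samples are clones derived from knockout cells.

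The stretch before the start site is shown for Fos and Atf3, whose levels lay in the same order, and for Egr2, the member with the largest difference between the rescue forms. These are the 250 bases before the start in the RefSeq promoter table of GRCm38.p6, read 5′ to 3′ on the gene's strand. For Egr2, which has 5 entries, the entry is that whose start is the GENCODE start of its deposited transcript. Of the 10 members, 8 matched the table. Capitals mark matches on either strand to TATAAA (the core promoter element bound by TBP), TGACG (the shared core of CREB and ATF sites) and the CArG box bound by serum response factor.
Fos, chr12:85473640-85473889, plus strand: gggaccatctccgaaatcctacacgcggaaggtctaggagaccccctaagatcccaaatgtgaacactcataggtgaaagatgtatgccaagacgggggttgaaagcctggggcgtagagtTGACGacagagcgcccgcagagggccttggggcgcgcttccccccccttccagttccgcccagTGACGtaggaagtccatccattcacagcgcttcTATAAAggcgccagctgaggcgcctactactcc
Egr2, chr10:67537619-67537868, plus strand: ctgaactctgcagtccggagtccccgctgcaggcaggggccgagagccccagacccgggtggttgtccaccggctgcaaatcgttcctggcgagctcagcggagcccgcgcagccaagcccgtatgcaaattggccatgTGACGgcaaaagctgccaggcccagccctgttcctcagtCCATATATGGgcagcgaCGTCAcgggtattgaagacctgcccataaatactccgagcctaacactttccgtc
Atf3, chr1:191183334-191183583, minus strand: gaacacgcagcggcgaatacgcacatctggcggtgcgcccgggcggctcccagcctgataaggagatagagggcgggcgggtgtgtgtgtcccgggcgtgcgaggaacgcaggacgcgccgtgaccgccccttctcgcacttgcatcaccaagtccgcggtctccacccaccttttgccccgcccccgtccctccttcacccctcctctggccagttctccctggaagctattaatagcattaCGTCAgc

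TATAAA lies from -33 to -28 in the Fos window, counted back from the base before the start at -1. It is in 1 of the 8 member windows and in 12.4% of the 32851 windows of that length in the table. The CArG box CCATATATGG lies from -72 to -63 in the Egr2 window, and a CArG box is in 1 of 8 member windows and in 1.47% of all. GGGCGG, not marked above, is in 5 of 8 and in 32.7% of all. TGACG is in 5 of the 8 member windows (Fos, Fosb, Junb, Egr2 and Atf3) and in 17.8% of all windows. The full palindrome TGACGTCA, which contains TGACG, is in 0 of 8 and in 1.55% of all, and the AP-1 element TGANTCA is in 0 of 8 and in 6.75% of all. The E-box CANNTG, the class of site that E proteins bind, is in 7 of 8 windows and in 66.2% of all, and in the Egr2 window it shares bases with TGACG. All motifs were searched on both strands, and a match describes letters only, not binding. Bases farther upstream than these 250 were not searched, so a motif missing here may lie beyond the window.

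Wild-type rescue against knockout sets clones with full-length TAF4 beside knockout cells that the labels do not call clones. The presence of TAF4 and the making of a clone therefore cannot be told apart in it. The clones did not overlap knockout in 8 members: Fosb, Fosl2, Jun and Egr2 lay above it, and Fos, Junb, Jund and Atf3 below it, where 36.4% of genes lay above and 45.2% below without overlap. By means, 6 members were higher than knockout, beside 45.3% of genes, and 4 lower, beside 54.7%. Egr2 was the only member at least 2-fold higher (2.85% of genes), at 3.76 ± 1.68 FPKM (SD, n = 2) against 1.19 in knockout, a log2 difference of 1.08 ± 0.39 (SE, limma adjusted p = 0.375). No member was at least 2-fold lower, against 1.1% of genes. The limma test called 0 of 10 members and 0% of genes, with 0 members at an unadjusted p under 0.05, beside 13.3% of genes. Junb passed when hTAF4 Δ clone 1 or clone 2 was left out, Fosl2 without clone 1, and Egr2 when each library was counted as a sample. Those fits called 26.7% of all genes without clone 1, 26.6% without clone 2 and 24.9% with each library as a sample. The authors' deposited table calls 6 of the 9 members that it tests (Atf3, Egr2, Fos, Fosb, Fosl2 and Junb), against 25.8% of transcripts.

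TAFH-deleted rescue against knockout makes the same comparison for the shortened protein, with the same limit. In it, 8 of 10 members had a lower mean than knockout, where 44.2% of genes did, and 2 a higher one, where 55.7% did. In 6 of them (Fos, Fosl2, Junb, Jund, Egr2 and Atf3) both clones were below both knockout libraries, as in 23.5% of genes, and no member lay above without overlap, as did 31.4% of genes. Of these, Fosl2 and Egr2 lay above knockout in both hTAF4 wt clones, a pattern shown by 8.63% of genes. Fos and Atf3 were at least 2-fold lower, a distance that 2.94% of genes reached, while no member was 2-fold higher (0.715% of genes). Fos was at 7.31 ± 4.62 FPKM (SD, n = 2) against 22.8, a log2 difference of -1.64 ± 0.57 (SE, limma adjusted p = 0.749). Atf3 was at 10.3 ± 5.47 FPKM against 33.1, a log2 difference of -1.68 ± 0.51 (SE, limma adjusted p = 0.739). The limma test called 0 of 10 members and 0% of genes, with 2 members, Fos and Atf3, at an unadjusted p under 0.05, as were 6.56% of all genes. Atf3 passed when each library was counted as a sample, without or with a block for the replicate number. Those fits called 1074 and 461 genes. The sum of the immune markers was 13.6 and 14.9 FPKM in knockout, above both Δ clones, and its part was not tested. The authors' deposited table also calls 0 of 10 members, and 0.957% of transcripts.

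The clones of the deleted form stood at unequal distances from knockout. Clone 1 was -1.04 from knockout in Fos and -1.16 in Atf3 on the log2 scale, and clone 2 was -2.24 and -2.19. In Fosl1 clone 1 was -0.82 and clone 2 was 1.30 from knockout, and in Egr1 they were 0.10 and -0.78. In Fosl2 clone 1 was -0.50 from knockout and clone 2 only -0.05. Without clone 1, 5 members passed (Fos, Junb, Jund, Egr1 and Atf3, each lower), and without clone 2 only Fosl2 did, where the same fits called 33.4% and 3.81% of all genes. The median over the 10 members was -0.25 for clone 1 and -0.50 for clone 2, beside 0.03 in each over all genes tested.

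**Figure D3:**
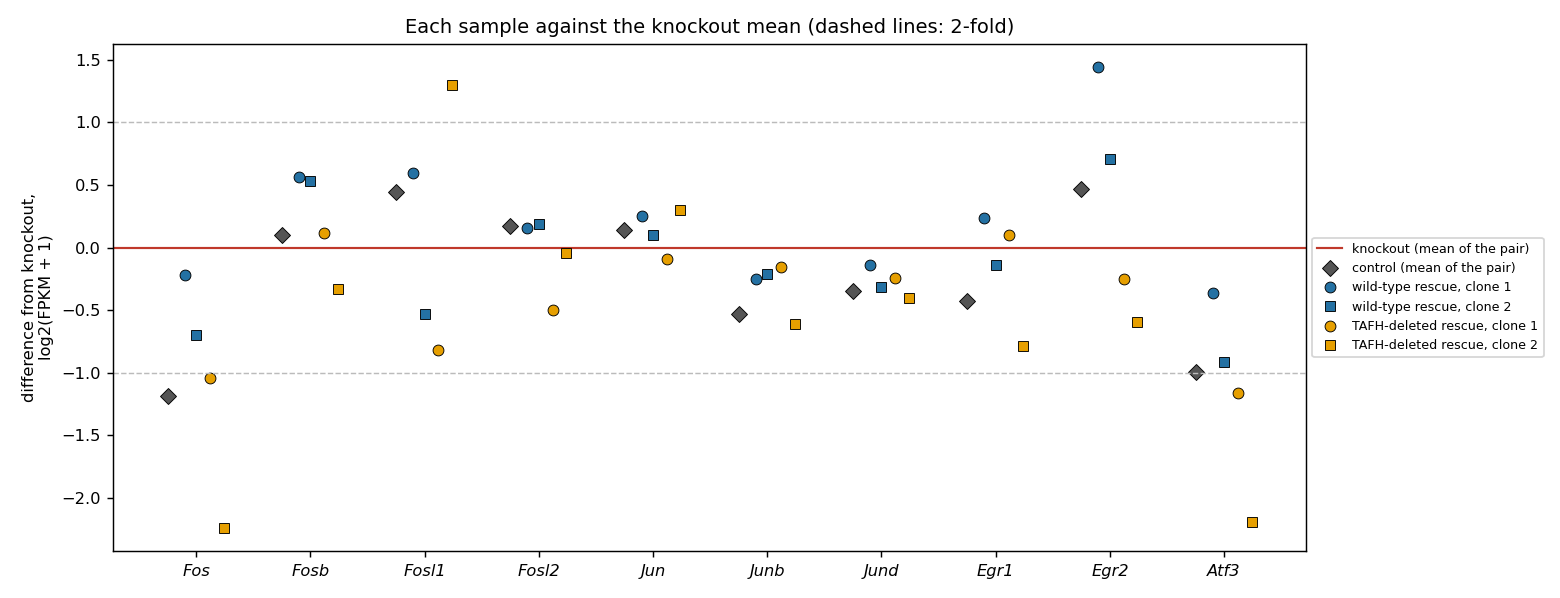
Difference of the control mean and of each rescue clone from the knockout mean, on the log2(FPKM + 1) scale, for each member. The line at 0 is knockout and the dashed lines mark 2-fold. hTAF4 Δ clone 2 (orange squares) lies at -2.24 for Fos, -2.19 for Atf3 and 1.30 for Fosl1.

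TAFH-deleted against wild-type rescue, 2 clones on each side, asks how clones of the forms differ, and it is the only comparison with calls among all genes. Of the 10 members, 9 had a lower mean with the deleted form, where 43.9% of genes did, and Fosl1 had a higher one, as did 56% of genes. In 5 (Fos, Fosb, Fosl2, Egr2 and Atf3) both hTAF4 Δ clones were below both hTAF4 wt clones, as in 26.4% of genes, and none lay above without overlap, as did 37.1%. Fos, Egr2 and Atf3 were at least 2-fold lower, as were 5.94% of genes. No member was 2-fold higher, against 2.6% of genes. The median of the 10 was -0.42, beside 0.06 for all genes. The limma test called 0 of 10 members, against 2.62% of all genes, with 2 members, Fosb and Egr2, at an unadjusted p under 0.05, as were 28.8% of all genes.

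Egr2 stood farthest apart, at 3.76 ± 1.68 FPKM (SD, n = 2) in the hTAF4 wt clones and 0.642 ± 0.277 in the Δ clones, which is -1.50 ± 0.32 on the log2 scale (SE, limma adjusted p = 0.0839). Fos was at 16.6 ± 4.10 and 7.31 ± 4.62 FPKM, a difference of -1.18 ± 0.47 (SE, limma adjusted p = 0.194). Atf3 was at 21.3 ± 5.94 and 10.3 ± 5.47 FPKM, a difference of -1.04 ± 0.42 (SE, limma adjusted p = 0.200). Fosb was at 3.67 ± 0.0682 and 2.01 ± 0.651 FPKM, and Fosl2 at 61.6 ± 0.852 and 45.5 ± 10.2 FPKM, with adjusted p = 0.159 and 0.184 (limma). Jun, Junb and Jund differed by -0.07 ± 0.17, -0.15 ± 0.17 and -0.09 ± 0.11 (SE), less than their spread. Fosl1 and Egr1 differed by 0.21 ± 0.84 and -0.39 ± 0.34 (SE). Without hTAF4 Δ clone 1, 7 members passed (Fos, Fosb, Fosl2, Junb, Egr1, Egr2 and Atf3), and without clone 2 only Fosl2 and Egr2 did, where the same fits called 55.9% and 40% of all genes. Egr2 and Fosl2 were thus called with either Δ clone alone. With both Δ clones, Egr2, Fosl2 and Fosb were called when each library was counted as a sample without a block for the replicate number. That fit called 38% of all genes. With that block Egr2, Fosb, Fos and Atf3 were called and Fosl2 was not, in a fit that called 3921 genes. None of these members was called with 6 samples. With 1 clone left in the group, that clone is assumed to vary like the hTAF4 wt clones.

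The sum of the 7 immune markers was 23.2 and 16.6 FPKM in the hTAF4 wt clones and 7.71 and 8.74 in the Δ clones, and its part in these values was not tested. Within that list Cd14 and Lyz2 were lower in both Δ clones, Cd68 and Csf1r were highest of the 8 libraries in Δ clone 2, and Ptprc, Emr1 and Itgam were at most 0.0229 FPKM throughout.

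**Figure D4:**
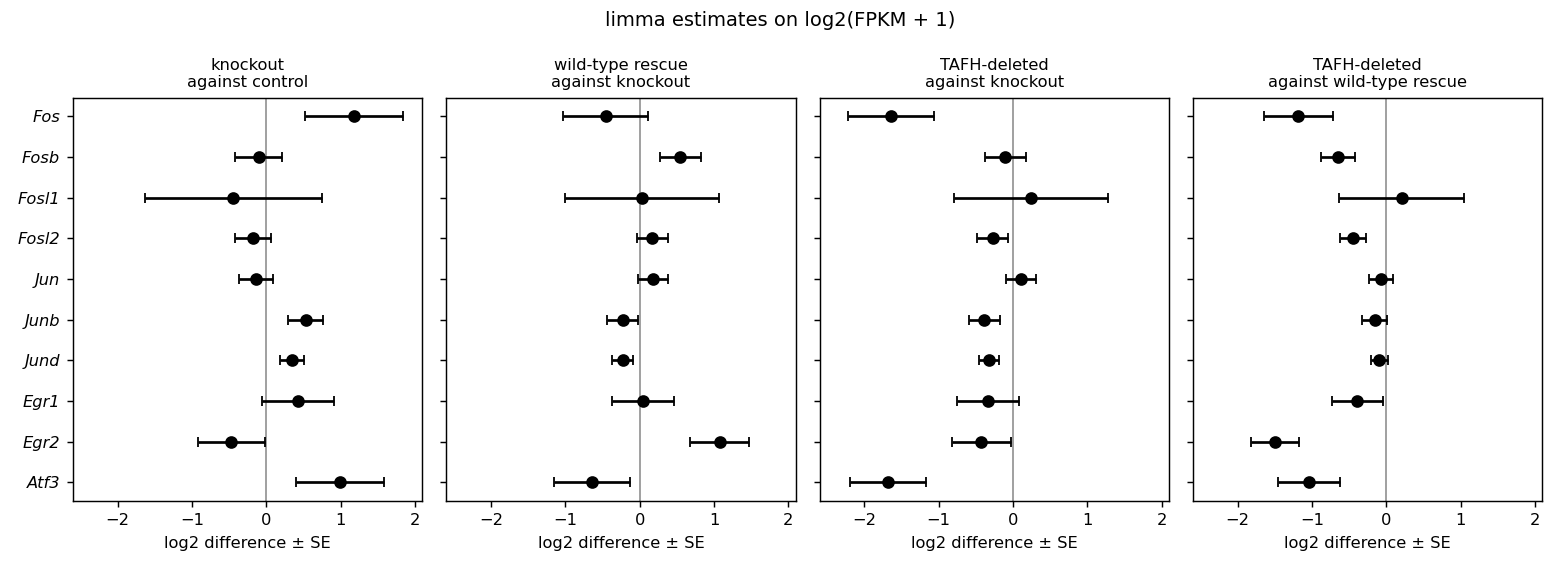
Limma log2 differences of each member with their standard errors, 1 panel per comparison, on the log2(FPKM + 1) scale. The widest error bars are those of Fosl1, and the estimate for Egr2 between the rescue forms is -1.50 ± 0.32.

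Between the forms, 43.9% of all genes tested were lower with the deleted form, 56% were higher and 2.62% were called, to be set beside each list below. Of 28 other immediate early genes listed, 27 were tested, and with the deleted form 22 had a lower and 5 a higher mean, with a median of -0.20 beside 0.06 for all genes. Of these, 1 was called lower and 0 higher: Zfp36, an RNA-binding protein that speeds the decay of short-lived mRNAs, was at 48.4 and 55.6 FPKM in the hTAF4 wt clones and 27.9 and 23.9 in the hTAF4 Δ clones, a log2 difference of -0.98 ± 0.13 (SE, limma adjusted p = 0.0497). Klf2, a zinc finger factor, was at 18.2 and 16.5 FPKM in control, 2.60 and 3.14 in knockout, 12.5 and 8.29 in the hTAF4 wt clones and 0.652 and 4.09 in the hTAF4 Δ clones. Klf4 was at 11.0 and 11.3 FPKM in control, 5.40 and 5.87 in knockout, 13.4 and 8.02 in the hTAF4 wt clones and 1.60 and 4.38 in the hTAF4 Δ clones. Both were lowest in hTAF4 Δ clone 1, unlike Btg2, an antiproliferative early gene, which was at 23.9 FPKM in that clone and 7.83 in clone 2. In knockout against control the list split into 14 higher and 13 lower, with 0 called.

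Other leucine zipper partners were tested for 16 of 18 genes, with 12 lower and 4 higher between the forms, a median of -0.24, and 2 called lower. Maf was at 27.7 and 27.2 FPKM in control, 8.09 and 8.48 in knockout, 26.8 and 28.8 in the hTAF4 wt clones and 9.13 and 8.31 in the hTAF4 Δ clones, so the clones of a form were close and the groups fell into a high and a low level. Its difference between forms was -1.57 ± 0.13 (SE, limma adjusted p = 0.0389). Ddit3, the stress factor CHOP, was at 97.6 and 87.2 FPKM in the hTAF4 wt clones and 56.8 and 51.7 in the hTAF4 Δ clones, a difference of -0.76 ± 0.09 (SE, limma adjusted p = 0.0496). Atf5 was at 50.1 and 53.3 against 27.0 and 39.1 FPKM.

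Upstream of these genes, serum response factor and its partners were tested for 7 of 7, with 0 called and a median of -0.06 between the forms. Mkl1, a serum response factor coactivator, was at 48.9 and 48.5 FPKM in control and 62.1 and 61.9 in knockout, and Fhl2 at 58.9 and 58.9 against 45.7 and 47.8. Elk1 ranged from 16.4 to 22.7 FPKM over the libraries, and Elk4 from 5.94 to 9.11. The MAP kinase cascade, 20 of 20 tested, lay the other way from the members. With the deleted form 17 of its genes had a higher mean and 3 a lower, beside 56% and 43.9% of all genes. The median was 0.29, beside 0.06 for all genes, and 0 were called. Rps6ka3, a kinase downstream of ERK, was at 16.9 and 17.1 FPKM in the hTAF4 wt clones and 28.4 and 34.3 in the hTAF4 Δ clones, Rps6ka1 at 12.4 and 11.7 against 22.4 and 18.7, and Nras at 23.6 and 25.6 against 38.5 and 47.5. Map2k6 was at 2.05 and 2.00 against 8.44 and 4.70 FPKM.

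Feedback inhibitors of the cascade and of Egr factors were tested for 16 of 18, with 7 lower and 9 higher between the forms, a median of 0.04 and 1 called lower. That gene, Spry1, an inhibitor of receptor tyrosine kinase signalling, was at 2.23 and 1.74 FPKM in control, 0.148 and 0.118 in knockout, 2.36 and 1.71 in the hTAF4 wt clones and 0.0307 and 0.0539 in the hTAF4 Δ clones, a log2 difference between forms of -1.53 ± 0.18 (SE, limma adjusted p = 0.0468). Dusp5 and Dusp14, MAP kinase phosphatases, were at 13.3 and 58.1 FPKM in hTAF4 Δ clone 2 and at 5.97 and 35.9 in clone 1. Dusp6 was at 11.0 and 11.0 FPKM in the hTAF4 wt clones and between 6.64 and 8.46 in all other libraries. Dusp7 was at 15.9 and 15.4 FPKM in knockout and between 22.0 and 36.8 elsewhere.

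Of 26 genes known from other work as AP-1 targets, 25 were tested, and 15 were lower and 10 higher between the forms, with a median of -0.12 and 0 called. Il6, an interleukin, was at 49.0 and 44.7 FPKM in the hTAF4 wt clones and 6.75 and 0.419 in the hTAF4 Δ clones, beside 29.6 and 30.2 in knockout. Fst, the activin antagonist follistatin, was at 25.4 and 22.6 against 0.953 and 5.37 FPKM, Mmp13, a collagenase, at 14.9 and 11.0 against 1.13 and 7.90, and Lif at 9.94 and 4.47 against 1.73 and 1.46. The 4 called genes of these lists (Zfp36, Maf, Ddit3 and Spry1) lost their call when either hTAF4 wt clone was left out. Over 15 alternatives Zfp36 was called in 8 (limma adjusted p from 0.00097 to 0.56), Ddit3 in 9 (0.000969 to 0.594), Spry1 in 10 (0.00123 to 0.537) and Maf in 12 (0.000233 to 0.56).

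**Figure D5:**
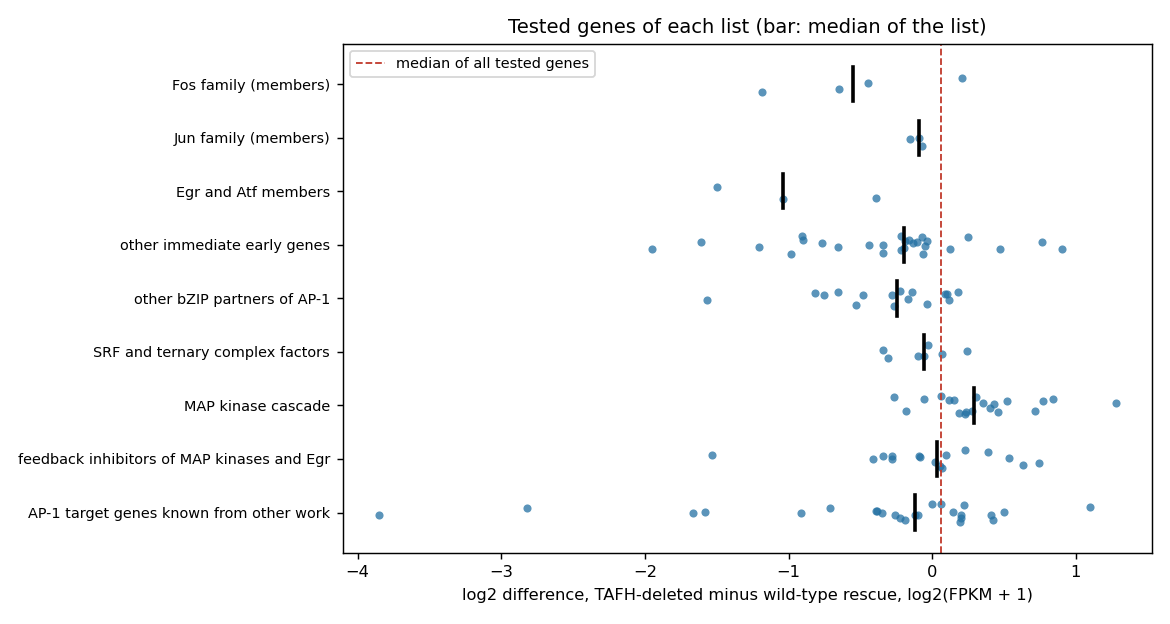
Log2 difference between the rescue forms for each tested gene of each list, with the list's median as a black bar and the median of all tested genes as a dashed line at 0.06. The points of the MAP kinase list lie mostly to the right, with a median of 0.29, and those of the members mostly to the left.

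Genes whose pattern over the 6 samples was most like that of a member were sought among those with an SD of at least 0.5 on the log2 scale. Fos was most like Bst2, an interferon-induced membrane protein (r = 0.995), which was at 35.9 and 35.4 FPKM in control, 56.8 and 59.0 in knockout, 53.0 and 42.7 in the hTAF4 wt clones and 37.3 and 19.1 in the hTAF4 Δ clones. Atf3 was most like Macrod1 (r = 0.996) and Orm2, an acute-phase protein (r = 0.989). Fosl1 was most like Plaur, the urokinase receptor (r = 0.964), at 72.3 FPKM in hTAF4 Δ clone 2 and 24.5 in clone 1. Egr2 was most like B3gnt3 (r = 0.992) and Nts, neurotensin (r = 0.990), and Fosb was most like Rnf207 (r = 0.995). Jun was most like Inhba, an activin subunit (r = 0.976). Each r was the highest or second highest for its member among the genes compared, over only 6 samples, and describes these samples alone. It does not compare sizes of change: the SD on the log2 scale was 0.148 for Jun and 0.915 for Inhba.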

How the data were processed

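The authors deposited FPKM per RefSeq transcript for 8 libraries, for which the submitters' processing notes name CASAVA 1.8, Cufflinks, Cuffdiff and TopHat, with the build mm9. Versions and options of the last 3 are not given in the sources used here. The table also holds the authors' group means and Cuffdiff p-values and q-values, quoted only as the authors' deposited values.

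FPKM were summed per gene and chromosome. Low values of 12350 genes with a single transcript gave whole fragments once 204.1 bases were taken from the length (tolerance 0.05). Pairs of libraries below sampling noise were averaged. Genes that reached 1 FPKM in 2 or more libraries and have a transcript of 300 bases or longer were fitted with limma 3.58.1 (trend) in R 4.3.3 on log2(FPKM + 1), 6 samples together without covariates, two-sided, with Benjamini-Hochberg adjustment over 12025 genes at 0.05. The log2 scale understates changes of low genes. This left 2 residual and 2.15 prior degrees of freedom. The script was tested on simulated data. Fold changes of means are ratios of FPKM.

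The members and lists were chosen with earlier results of these data known. From each further list, genes called and the 4 with the largest difference in any comparison, where some group averaged 5 FPKM or more, were named, except 1 gene that is not reported here. The motifs were chosen after the sequences were seen. For likeness, the 2 genes with the highest r to each member were taken, of which some are printed. Alternatives were another pseudocount, no filter, quantile normalization, each library as a sample with or without a replicate block, short transcripts kept, only the compared groups, and each library left out. Coordinates of promoters are GRCm38.p6 and were not compared with those of the deposited table.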

Additional observations from a re-analysis of the deposited data

Results flagged for a closer look

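Egr2 and Fosl2 were the members for which both hTAF4 wt clones lay above both knockout libraries and both hTAF4 Δ clones lay below them, so that the rescue forms lay on opposite sides of it. Of all genes tested, 8.63% showed that pattern. For Egr2 the difference between the forms was -1.50 on the log2(FPKM + 1) scale, with a limma adjusted p of 0.0839. For Fosl2 it was -0.45, with a limma adjusted p of 0.184. Neither passed the test of the difference itself. In Fosl2 hTAF4 Δ clone 2 lay close to knockout, at -0.05 on that scale, while clone 1 was at -0.50.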

How the results depend on the processing

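The test as designed called 0 members in all 4 comparisons and 0, 0, 0 and 315 genes, in the order knockout against control, wild-type rescue against knockout, TAFH-deleted against knockout and TAFH-deleted against wild-type rescue. Between the forms, 142 genes were called with a pseudocount of 0.1, 175 after quantile normalization and 0 without the filter, which called 213 in knockout against control. With short transcripts kept, 15, 21, 13 and 106 genes were called. With only the 2 groups compared, 3169 genes and 1 member (Junb) were called in wild-type rescue against knockout, and knockout against control could not be fitted. With each library as a sample and no replicate block, 2857, 2998, 1074 and 4566 genes and 2, 1, 1 and 3 members were called. With the replicate block they were 2019, 2232, 461 and 3921 genes and 1, 1, 1 and 4 members, though the samples share only a number and nothing says that it pairs them. Leaving out 1 library gave 0 to 2712, 0 to 3211, 0 to 4013 and 0 to 6722 genes and 0 to 2, 0 to 2, 0 to 5 and 0 to 7 members, with the increases in member calls from leaving out an hTAF4 Δ clone. Of 590 values for members under alternatives, 537 kept direction and side of the threshold, 37 passed it and 16 turned sign. Quantile normalization turned Fosb to 0.2476 in knockout against control and 0.04161 in TAFH-deleted against knockout, and Fosl1 to -0.01141 in wild-type rescue against knockout. Leaving out 1 library gave log2 differences that turned sign for Fosl1 (-0.5334 to 0.5997) and Egr1 (-0.1353 to 0.2359) in wild-type rescue against knockout. The ranges were -0.3275 to 0.1169 for Fosb, -0.8183 to 1.3 for Fosl1, -0.08949 to 0.3007 for Jun and -0.7821 to 0.104 for Egr1 in TAFH-deleted against knockout. Between the forms they were -0.8515 to 1.266 for Fosl1, -0.2656 to 0.1245 for Jun, -0.3801 to 0.07186 for Junb and -0.8324 to 0.05368 for Egr1. The cause was not tested. Egr2, with 20 to 233 implied fragments, is the member that depth limits most.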
